A study of Drosophila melanogaster with 18 samples.

Results

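Wing imaginal discs of Drosophila melanogaster larvae carrying clones mutant for warts (wts) were compared with control discs at day 5, gene by gene, in 3 replicates of each. The comparison used 12 of the 18 libraries of the series, an a and a b library for each replicate number, summed. Of the 17373 genes in the deposited count table, 8585 had enough counts to be tested. The wts discs are labelled with the genotype ubxflp:FRT82B wts149 and the control discs with ubxflp:FRT82B, and both held their clones in a Minute background, so that ubxflp, FRT82B and the Minute mutation were common to both. Clones of this kind are made when the FLP recombinase, driven here by Ubx sequences according to its name, exchanges chromosome arms at the FRT82B site, and Minute cells, which carry a mutation in a ribosomal protein gene, are outgrown by cells without it. The labels do not say which Minute mutation was used, what the wts149 allele changes or how much of each disc was mutant. All larvae were wandering, in the third instar, and the discs were dissected by hand. The control is titled day 5 while its description reads d5.d6, so equal age of the groups is not established. The wts day 9 libraries of the series were used in the fit only. There they entered the gene filter, the scaling and the estimate of the spread.

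Wts is a kinase of the Hippo pathway. It phosphorylates the transcriptional co-activator Yorkie and so keeps it out of the nucleus. In wing discs, Yorkie with its DNA-binding partner Scalloped raises genes for growth and survival, together with upstream members of the pathway itself such as expanded and kibra, and discs that lose wts overgrow. The values below are CPM, read counts scaled to a common library total, with TMM scaling on top, always in the order of replicates 1, 2 and 3. Differences are log2 of wts over control with their standard error, and each adjusted p is from the quasi-likelihood test of edgeR with Benjamini-Hochberg adjustment over all 8585 genes. A gene is called at an adjusted p under 0.05, and unless another number is given it kept its call in each of the 9 fits that leave out 1 of the 9 replicates. Genes named only because they overlap another are given by the fit of all replicates.

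Summed depth was 14201662 to 19762758 counts in wts replicates and 18063124 to 22263073 in controls. Libraries a and b of the same replicate gave a chi-square per degree of freedom of 0.994 to 1.06, against 11.1 to 58.9 between replicates of a group. By a chi-square test over the genes counted, the libraries of the first control (p = 8.52e-05) and of the third wts day 5 replicate (p = 0.0129) differed slightly more than sampling noise allows. In the other pairs p lay between 0.0563 and 0.659. The labels do not say whether a replicate is a separate set of larvae, so a p-value here speaks of the spread among these samples and no wider. Bulk RNA was measured, and fewer cells of a type and less RNA per cell cannot be told apart.

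The wts transcript itself was higher in the wts discs. It had 213, 208 and 185 CPM in wts discs, against 99.8, 106 and 95.6 CPM in control discs, a mean of 202 ± 14.6 against 101 ± 5.38 (SD, n = 3 each), and the groups did not overlap (log2 difference 1.01 ± 0.07, adjusted p = 3.84e-05). Because the lesion of the allele is not given in the sources used here, this level does not check the genotype.

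Over all genes, 828 were called higher in wts discs, which is 9.64% of those tested, and 762 lower, which is 8.88%. The direction depended partly on scaling, since library size alone gave 644 higher and 1066 lower, with a median log2 difference over all genes of -0.053 in place of -0.002. Among called genes 204 were at least 2-fold higher, 2.38% of those tested, and 316 at least 2-fold lower, 3.68%. A fit of the 2 day 5 groups alone, without wts day 9, called 672 genes higher and 611 lower. The calls leaned on single replicates. Leaving out wts replicate 3 gave 463 higher and 276 lower, leaving out wts replicate 1 gave 541 higher and 405 lower, and leaving out control replicate 1 gave 554 higher and 450 lower. In all 9 such fits 653 genes kept their call, 7.61% of those tested, of which 402 were higher, 4.68%, and 251 lower, 2.92%. The wts and control values did not overlap for 823 of the 828 genes called higher and for 730 of the 762 called lower, where 37.1% of all genes tested showed no overlap. A stricter reading asks that the gap between the groups, on the log2(CPM + 1) scale, exceed the whole range of the 3 controls. That held for 494 genes called higher and 333 called lower, 5.75% and 3.88% of those tested, and for 12.6% of all genes in either direction, called or not.

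The spread between controls was uneven. Among 6056 genes that averaged 10 CPM or more in both groups, the median SD of log2(CPM + 1) was 0.09 over wts replicates and 0.099 over controls, and the 90th percentile was 0.181 over wts replicates and 0.233 over controls. An SD above 1 was found for 19 of 6197 genes over wts replicates, with replicate 2 farthest from the median in 17 of them, and for 75 of 6223 genes over controls. Control replicate 2 was the farthest in 37 of these 75 genes, replicate 3 in 22 and replicate 1 in 16. Of the 75, 42 were called lower in wts discs, 33 were not called and 0 were called higher by edgeR. Over all genes tested, 8.88% were called lower and 9.64% higher. The 75 were chosen by level and spread in controls, with no condition on wts, so the choice itself favours lower calls.

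**Figure D1:**
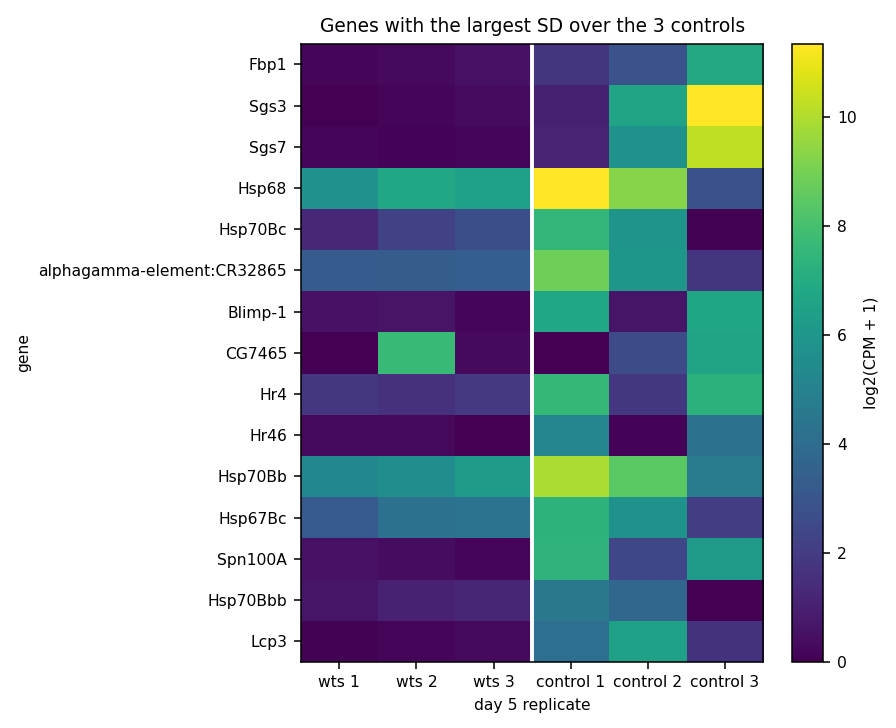
Level of the 15 genes with the largest SD over the 3 controls, as log2(CPM + 1) in colour, with 1 row per gene and 1 column per day 5 replicate, wts left and control right. Patterns over the controls include salivary glue genes highest in control 3, heat shock genes highest in control 1, and ecdysone-response genes high in controls 1 and 3 alone. Lcp3 follows none of these and is highest in control 2.

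The widest spread was in Sgs3, a salivary glue gene, which had 0, 0.14 and 0.26 CPM in wts discs, against 0.984, 97.6 and 2581 CPM in control discs. It came to 7 counts in all wts replicates, against 50632 in controls, nearly all of them in control 3, and its call was lost without wts replicate 1 and without wts replicate 3. A second pattern was seen in heat shock genes. Hsp68 had 55.8, 111 and 88.1 CPM in wts discs, against 2514, 612 and 6.24 CPM in control discs and was not called (adjusted p = 0.0805). Hsp70Bc, another inducible chaperone, had 1.45, 3.58 and 5.56 CPM in wts discs, against 178, 58 and 0.0533 CPM in control discs and was also not called (adjusted p = 0.0512). Both were highest in control 1 and lowest in control 3, with the wts replicates in between.

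The third pattern set control 2 beside the wts discs. Blimp-1, an ecdysone-induced repressor that acts around pupariation, had 0.466, 0.492 and 0.104 CPM in wts discs, against 110, 0.578 and 105 CPM in control discs. Hr4, an ecdysone-induced nuclear receptor, had 2.49, 2.11 and 2.7 CPM in wts discs, against 188, 2.62 and 157 CPM in control discs. Hr46, the nuclear receptor also named Hr3, had 0.207, 0.211 and 0 CPM in wts discs, against 37.3, 0.0889 and 18.6 CPM in control discs. Controls 1 and 3 were high, and control 2 lay at the level of the wts replicates, which it overlapped for Hr4 and Hr46. All 3 genes were called lower (log2 difference -7.69 ± 1.81, adjusted p = 0.0181, for Blimp-1), but lost the call without any 1 of the 3 wts replicates, Hr4 and Hr46 also without control 1. Spn100A, a serpin, had 0.466, 0.281 and 0.156 CPM in wts discs, against 164, 4.27 and 68.6 CPM in control discs and kept its call (log2 difference -7.99 ± 1.53, adjusted p = 0.00702). The larval cuticle gene Lcp3 was highest in control 2, with 0.0518, 0.14 and 0.208 CPM in wts discs, against 16.7, 89.2 and 2.19 CPM in control discs, and kept its call as well (adjusted p = 0.00585). The part of this spread, and of the d5.d6 description of the controls, in the counts of genes that fell was not tested.

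Among genes with at least 10 CPM in a group and a gap wider than the control range, the largest rise was that of ppk13. This gene, for a subunit of the pickpocket family of sodium channels, had 55.4, 56.2 and 53.1 CPM in wts discs, against 0.0937, 0.0889 and 0.0533 CPM in control discs. The 2891 counts in wts discs against 5 in controls give a depth-scaled ratio of 686, with a 95% counting interval of 294 to 2114 (adjusted p = 2.92e-09). CG33509, next to it on arm 2L, had 23.5, 28.9 and 25 CPM in wts discs, against 0.0468, 0.267 and 0.0533 CPM in control discs, which is 1347 against 8 counts (ratio 200, interval 101 to 464). Both were near 0 in every control and at a similar level in the 3 wts replicates. Intervals on counts cover counting error alone.

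Ilp8, a relaxin-like peptide that damaged or overgrowing discs secrete to delay metamorphosis, had 51.4, 45.1 and 50 CPM in wts discs, against 0.281, 1.87 and 0.32 CPM in control discs (log2 difference 5.83 ± 0.45, adjusted p = 6.34e-05). Control 2 was the highest control, and all were far below the wts replicates. The long noncoding RNA CR45923 had 48, 49.5 and 58.4 CPM in wts discs, against 2.11, 2.75 and 2.61 CPM in control discs (log2 difference 4.38 ± 0.16, adjusted p = 3.79e-07), and the groups were again far apart. CG43394 had 383, 336 and 370 CPM in wts discs, against 26.7, 28.8 and 26.2 CPM in control discs (log2 difference 3.74 ± 0.10, adjusted p = 2.28e-08). It overlaps CG8552 on the opposite strand, a gene called lower, and strand-specific counting is not stated. Natalisin, a neuropeptide gene, had 54.9, 84.5 and 85.7 CPM in wts discs, against 10.9, 12.6 and 9.28 CPM in control discs (log2 difference 2.77 ± 0.58, adjusted p = 0.0109), with wts replicate 1 below the other wts replicates but above all controls. It overlaps CR44176 on the opposite strand, also called higher. Pde1c, a cyclic nucleotide phosphodiesterase, had 11.3, 9.83 and 9.3 CPM in wts discs, against 2.39, 1.51 and 1.97 CPM in control discs (log2 difference 2.37 ± 0.20, adjusted p = 0.000115). CG7059, CG9521, CG7294 and CG13692 rose by log2 differences of 3.02, 3.02, 2.55 and 2.36. CG12164, in the same set by size, had 72.4, 75.8 and 112 CPM in wts discs, against 22.6, 14 and 16.6 CPM in control discs and lost its call without any 1 of the wts or control replicates (adjusted p = 0.0494 with all).

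Further rises, of smaller size than those above, were chosen for their adjusted p-values. Kibra, an upstream activator of Wts, had 285, 271 and 277 CPM in wts discs, against 90.5, 90.9 and 83 CPM in control discs (log2 difference 1.66 ± 0.06, adjusted p = 3.79e-07). Expanded (ex), which acts with Kibra, had 2369, 2402 and 2081 CPM in wts discs, against 786, 917 and 851 CPM in control discs (log2 difference 1.42 ± 0.08, adjusted p = 1.32e-05). BBS8, named for the Bardet-Biedl syndrome proteins of cilia, had 25, 26.8 and 24.5 CPM in wts discs, against 6.7, 5.86 and 5.17 CPM in control discs (log2 difference 2.10 ± 0.11, adjusted p = 5.5e-06). The gene nahoda had 553, 523 and 491 CPM in wts discs, against 162, 192 and 159 CPM in control discs (log2 difference 1.61 ± 0.09, adjusted p = 7.39e-06). CG8303, CG5326, CG11550 and CG12206 rose by 1.49, 1.26, 1.47 and 1.09 on the log2 scale. All genes chosen by size or adjusted p came from those whose gap exceeds the control range, so that their groups do not overlap follows from the choice.

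**Figure D2:**
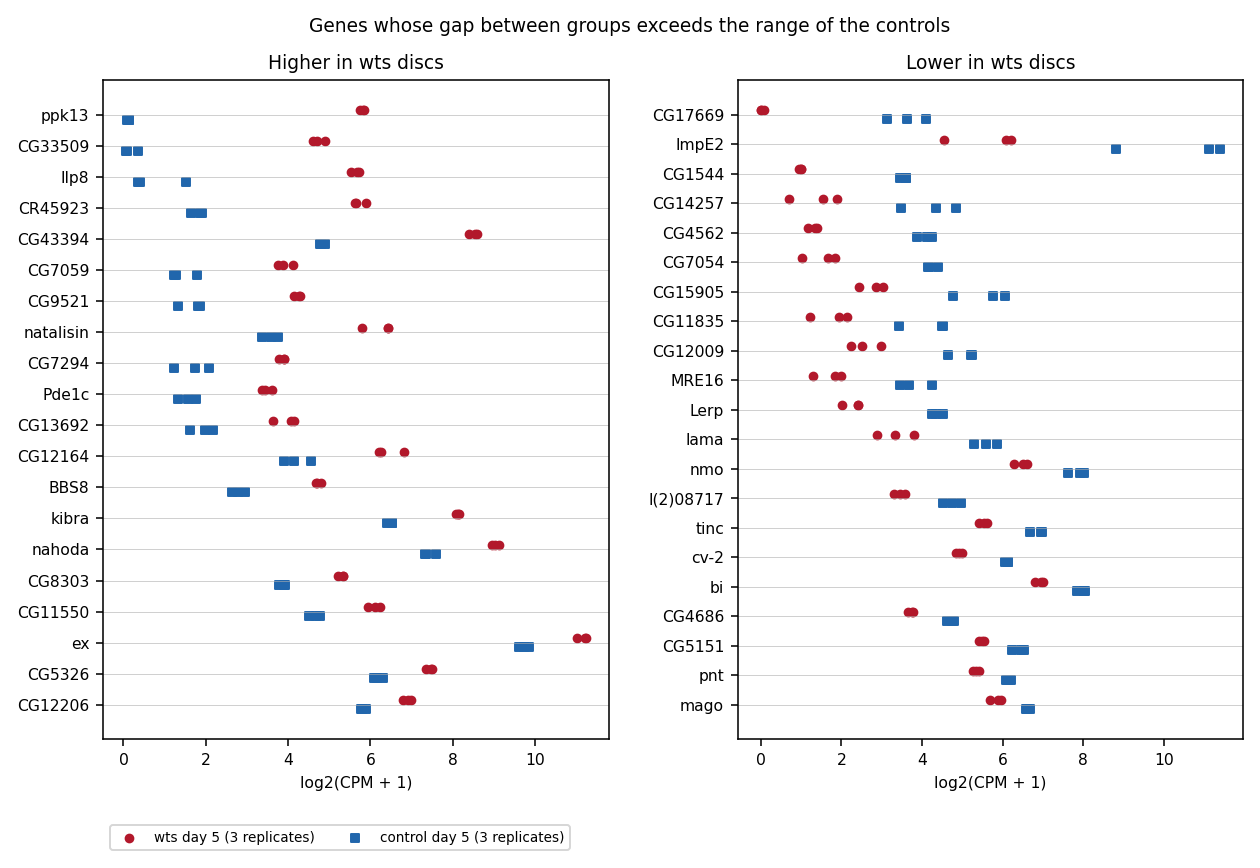
CPM of each replicate on a log2(CPM + 1) axis for the 20 genes that rose (left) and 21 that fell (right), chosen by size or adjusted p among genes whose gap exceeds the control range, with wts as red circles above control as blue squares. The replicates of kibra and ex lie close together in both groups, while ImpE2 shows 1 control apart from the other controls.

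Among falls in the same class, CG17669, which the annotation now names Dnaaf3 after the dynein assembly factors, had 0.0518, 0 and 0 CPM in wts discs, against 11.4, 16.1 and 7.73 CPM in control discs. It came to 1 count in wts discs against 752 in controls, and control was higher by a ratio of 634 with a counting interval of 113 to 25075 (adjusted p = 0.000178). ImpE2, an ecdysone-inducible gene of imaginal discs, had 73.2, 67.4 and 22.3 CPM in wts discs, against 2218, 452 and 2696 CPM in control discs (log2 difference -5.04 ± 0.79, adjusted p = 0.00273). Control 2 was far below the other controls, yet every wts value was lower still. CG1544 had 0.933, 0.983 and 0.987 CPM in wts discs, against 11.1, 10 and 11.2 CPM in control discs (log2 difference -3.47 ± 0.37, adjusted p = 0.000424), with little spread in either group. CG4562, an ABC transporter gene now named Mrp5, had 1.61, 1.26 and 1.56 CPM in wts discs, against 18, 13.6 and 16.4 CPM in control discs (log2 difference -3.43 ± 0.18, adjusted p = 5.5e-06), but overlaps CG4686, which was also called lower. Lerp, a receptor for lysosomal enzymes, had 4.35, 4.28 and 3.07 CPM in wts discs, against 19.5, 18 and 22 CPM in control discs (log2 difference -2.35 ± 0.16, adjusted p = 3.3e-05). Lama (lamina ancestor) had 9.07, 12.9 and 6.39 CPM in wts discs, against 56.8, 38.3 and 46.7 CPM in control discs (log2 difference -2.33 ± 0.32, adjusted p = 0.00142). CG14257, CG7054, CG15905, CG11835, CG12009 and the noncoding RNA gene MRE16 fell by 3.44, 3.22, 3.02, 2.82, 2.65 and 2.49 on the log2 scale.

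Other falls with small adjusted p-values were of smaller size and included regulators of wing pattern. Crossveinless 2 (cv-2), a protein that binds BMP ligands, had 30.7, 29.1 and 27.7 CPM in wts discs, against 69.3, 69.2 and 65.4 CPM in control discs (log2 difference -1.22 ± 0.10, adjusted p = 0.000115). Bifid (bi), the T-box factor also known as optomotor-blind, had 122, 127 and 110 CPM in wts discs, against 257, 261 and 227 CPM in control discs (log2 difference -1.06 ± 0.09, adjusted p = 0.000121), and overlaps CR32773, called lower too. Pointed (pnt), an ETS factor acting in EGFR signalling, had 41.7, 39.2 and 37.3 CPM in wts discs, against 69.2, 72.6 and 67.4 CPM in control discs (log2 difference -0.82 ± 0.08, adjusted p = 0.000252). Nemo (nmo), a kinase that acts on Wnt and BMP signalling, had 95.7, 90.2 and 76.3 CPM in wts discs, against 240, 196 and 260 CPM in control discs (log2 difference -1.41 ± 0.14, adjusted p = 0.000252). Tincar (tinc) fell by 1.37 and mago, of the exon junction complex, fell by 0.79 on the log2 scale.

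Functions were read from 59 gene lists that together hold 1789 of the tested genes, 400 of them called. Where a list's count is given, it is the number of its tested genes called, to be read beside the 9.64% higher and 8.88% lower of all genes, and its median log2 difference stands beside -0.002 over all genes. Some lists contribute named genes only, and the plot of shares shows all 59. In the fit of the 2 day 5 groups alone, several lists held fewer higher calls. Examples are 8 in place of 13 for cytoplasmic ribosomal proteins and 7 in place of 11 for actin and myosin. Chitin genes had 4 in place of 7, tetraspanins 3 in place of 6 and mitosis 3 in place of 5. The peroxisome list went the other way, from 0 to 1.

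**Figure D3:**
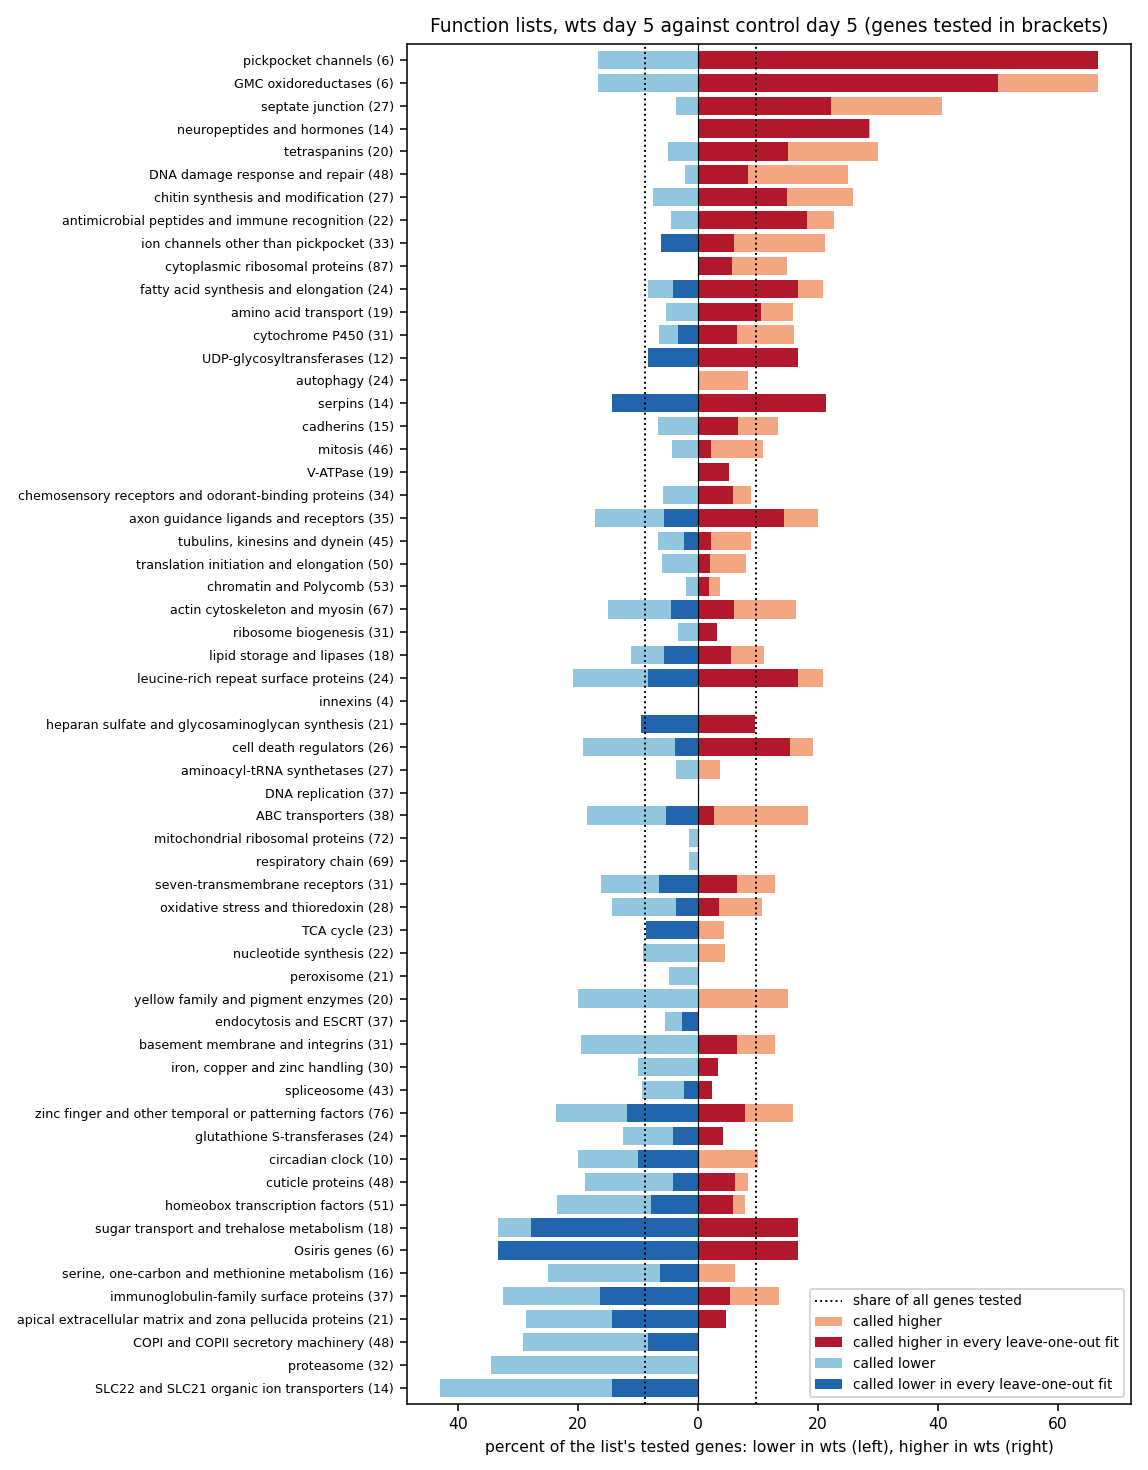
Share of each function list's tested genes (number in brackets) called higher in wts discs to the right and lower to the left, in percent, with the genes that kept their call whichever replicate was left out in dark colour and the share of all genes tested as dotted lines. Pickpocket channels, GMC oxidoreductases and septate junction genes reach farthest to the right. Organic ion transporters reach farthest to the left, followed by proteasome, sugar handling and Osiris genes.

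The early secretory pathway leaned down. The COPI and COPII list, which covers vesicle coats, the translocon and folding in the endoplasmic reticulum, had 14 of 48 genes called lower, 4 of which kept the call, and 0 higher by edgeR, DESeq2 or limma-voom, with 0 higher at an unadjusted p under 0.05 too. Its median was -0.18. Cnx99A, the chaperone calnexin, had 185, 193 and 165 CPM in wts discs, against 268, 233 and 284 CPM in control discs (log2 difference -0.53 ± 0.09, adjusted p = 0.00403). Tango1, which loads large cargo into vesicles, had 124, 140 and 111 CPM in wts discs, against 175, 164 and 182 CPM in control discs (log2 difference -0.48 ± 0.09, adjusted p = 0.00574). Sec24CD, of the COPII coat, had 168, 167 and 139 CPM in wts discs, against 228, 194 and 213 CPM in control discs (log2 difference -0.42 ± 0.08, adjusted p = 0.009). The groups did not overlap in any of the 3 genes, and the differences were small. The 3 subunits of the Sec61 translocon fell by 0.49, 0.35 and 0.30 (alpha, beta and gamma), without keeping their calls in every fit. The count fell to 5, 7 and 4 without wts replicate 1, 2 or 3, to 4 and 7 without control 1 or 3, and to 9 without day 9 replicate 3.

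The proteasome list had 11 of 32 genes called lower, again with 0 higher by edgeR, DESeq2 or limma-voom and 0 higher at an unadjusted p under 0.05, and a median of -0.21. None kept its call in every fit. The count was 1 and 0 without wts replicate 1 or 3, 0 and 3 without control 1 or 3, 4 without day 9 replicate 3 and 18 under library size alone. Rpn13, a ubiquitin receptor of the 19S cap, had 115, 112 and 104 CPM in wts discs, against 152, 136 and 151 CPM in control discs (log2 difference -0.40 ± 0.09, adjusted p = 0.0136). Every wts value was below every control, but the call was lost without wts replicate 3 or control 1.

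Genes of growth and division moved little as groups. DNA replication had 0 of 37 genes called in either direction by edgeR, with 8 higher at an unadjusted p under 0.05, 1 called higher by DESeq2 and 0 by limma-voom, and a median of 0.09. It had 1 higher without wts replicate 1. Mitotic genes were called higher in 5 of 46 and lower in 2, with a median of 0.08, and 1 kept its call. That 1 was subito (sub), a kinesin of the meiotic and mitotic spindle, with 79.1, 80.8 and 91.7 CPM in wts discs, against 66, 61.7 and 58.2 CPM in control discs (log2 difference 0.44 ± 0.08, adjusted p = 0.00466). Outside the rule for named genes, and chosen after its values were seen, string (stg), the Cdc25 phosphatase that triggers mitosis, had 359, 1087 and 854 CPM in wts discs, against 230, 214 and 251 CPM in control discs (adjusted p = 0.041), with wts replicate 1 far below the other wts replicates, and lost its call without wts replicate 2 or 3 or any 1 of the controls. Higher calls in this list numbered 3 and 1 without wts replicate 1 or 3, 1 without control 1, and 2 under library size alone. Its lower calls numbered 0 without any 1 of the wts replicates, without control 1 or 2, or without day 9 replicate 3, and 1 without day 9 replicate 2.

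Cytoplasmic ribosomal protein genes were called higher in 13 of 87, lower in 0, with 0 lower by DESeq2 or limma-voom and 0 lower at an unadjusted p under 0.05, and a median of 0.15. RpL15, of the large subunit, had 1888, 1986 and 2292 CPM in wts discs, against 1390, 1522 and 1307 CPM in control discs (log2 difference 0.55 ± 0.09, adjusted p = 0.00301). RpS3A, of the small subunit, had 2866, 3174 and 3479 CPM in wts discs, against 2393, 2471 and 2297 CPM in control discs (log2 difference 0.41 ± 0.08, adjusted p = 0.00656). Neither overlapped, and the 13 differences lay between 0.25 and 0.55. In this list 5 genes kept their call, RpL15, RpL5, RpS3, RpS3A and RpS9. The count was 8 and 5 without wts replicate 1 or 3, 8 and 6 without control 1 or 3, and 22 by DESeq2. The mitochondrial ribosome had 1 of 72 genes called and the respiratory chain 1 of 69, both lower, with medians of 0.07 and -0.03, and at most 2 genes of either list were called in a direction whichever replicate was left out.

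DNA damage response and repair had 12 of 48 genes called higher and 1 lower, with a median of 0.16. Rad50, of the complex that senses broken ends, had 127, 125 and 140 CPM in wts discs, against 107, 96.7 and 98.8 CPM in control discs (log2 difference 0.38 ± 0.07, adjusted p = 0.00837). FANCI, of crosslink repair, had 102, 108 and 114 CPM in wts discs, against 82.4, 91 and 79.3 CPM in control discs (log2 difference 0.36 ± 0.07, adjusted p = 0.00592). Loki (lok), the Chk2 checkpoint kinase, had 101, 103 and 107 CPM in wts discs, against 83, 84.8 and 83.4 CPM in control discs (log2 difference 0.31 ± 0.06, adjusted p = 0.011). These 3 kept their calls and did not overlap. Higher calls numbered 4 without wts replicate 3 and 7 without control 2. The gene called lower was grapes (grp), the Chk1 kinase, at -0.38. Its list's lower count was 0 without wts replicate 1 or 3 and 2 without control 3.

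Sugar handling was called in 9 of 18 genes, 3 higher and 6 lower, with a median of -0.12, and 8 of these kept the call. Glycogen synthase (GlyS) had 247, 247 and 239 CPM in wts discs, against 186, 171 and 180 CPM in control discs (log2 difference 0.45 ± 0.06, adjusted p = 0.000915), and glycogen phosphorylase (GlyP), which breaks glycogen down and was chosen after its values were seen, had 362, 363 and 372 CPM in wts discs, against 287, 299 and 247 CPM in control discs (log2 difference 0.40 ± 0.08, adjusted p = 0.0104). Both enzymes were higher in every wts replicate than in any control. Glut1, a glucose transporter chosen in the same way, had 17.6, 17.2 and 12.2 CPM in wts discs, against 32.6, 25.1 and 44.3 CPM in control discs (log2 difference -1.12 ± 0.20, adjusted p = 0.00542). CG10960, a sugar transporter gene now named nebulosa (nebu), had 14.4, 14.3 and 6.23 CPM in wts discs, against 85.4, 31.3 and 113 CPM in control discs (log2 difference -2.72 ± 0.46, adjusted p = 0.00391). Fructose-1,6-bisphosphatase (fbp), an enzyme of gluconeogenesis, had 56.9, 56.4 and 57.4 CPM in wts discs, against 78.7, 80.5 and 76.9 CPM in control discs (log2 difference -0.47 ± 0.08, adjusted p = 0.00533). The falls of Glut1 and CG10960 came with wide control values, of which control 2 was the lowest each time. CG8249, which had the smallest adjusted p of the list, rose instead. It had 6.37, 6.67 and 5.66 CPM in wts discs, against 2.53, 2.35 and 2.45 CPM in control discs (log2 difference 1.35 ± 0.15, adjusted p = 0.000588). CG5171 and CG5177, neighbours on arm 2L in the same list, fell by 2.42 and 2.07. Triose phosphate isomerase (Tpi), of glycolysis, had 109, 125 and 105 CPM in wts discs, against 172, 169 and 165 CPM in control discs (log2 difference -0.58 ± 0.11, adjusted p = 0.0075), and Sima, the HIF-alpha factor, had 236, 221 and 208 CPM in wts discs, against 273, 314 and 309 CPM in control discs (log2 difference -0.43 ± 0.07, adjusted p = 0.00418).

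Lipid genes moved in both directions. Fatty acid synthesis and elongation had 5 of 24 called higher and 2 lower and a median of 0.05, with lower calls at 1 without wts replicate 1 or 3 or without control 1 or 2, and at 5 under library size alone. CG17374, a fatty acid synthase now named FASN3, had 11.6, 11.2 and 13 CPM in wts discs, against 2.67, 4.04 and 3.31 CPM in control discs (log2 difference 1.84 ± 0.23, adjusted p = 0.001). Desat1, the delta-9 desaturase, had 638, 592 and 665 CPM in wts discs, against 413, 413 and 329 CPM in control discs (log2 difference 0.71 ± 0.11, adjusted p = 0.00245). CG31522, in the elongase part of the list, had 4.51, 5.2 and 7.17 CPM in wts discs, against 34.8, 30.9 and 14.2 CPM in control discs (log2 difference -2.24 ± 0.31, adjusted p = 0.00163). No values overlapped in these genes. Midway (mdy), a diacylglycerol acyltransferase that makes triglyceride, had 84.4, 70 and 93.2 CPM in wts discs, against 45.3, 48.7 and 48.1 CPM in control discs (log2 difference 0.80 ± 0.10, adjusted p = 0.000865). CG5326, named above, belongs to the elongase part as well, as does CG5278 (sit), which rose by 3.31. In the serine and one-carbon list, CG6287 had 29.6, 32.9 and 19.7 CPM in wts discs, against 97.1, 62.2 and 145 CPM in control discs (log2 difference -1.89 ± 0.29, adjusted p = 0.00266).

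Transporters of organic ions were called lower in 6 of 14 genes, with 0 higher by edgeR, DESeq2 or limma-voom and 0 higher at an unadjusted p under 0.05, and the median was -0.63. Of these, 2 kept the call. Oatp30B had 31.3, 32.2 and 30.4 CPM in wts discs, against 60.6, 48 and 66.8 CPM in control discs (log2 difference -0.90 ± 0.13, adjusted p = 0.00169). Orct2 had 25.7, 28 and 25 CPM in wts discs, against 34.2, 49.3 and 51.1 CPM in control discs (log2 difference -0.78 ± 0.14, adjusted p = 0.0049). Both carry organic ions across membranes and neither overlapped. The count was 2 without wts replicate 3. Of amino acid transporters, 3 of 19 were higher and 1 lower, though the median was -0.20, and CG1732, the GABA transporter Gat, had 4.56, 7.58 and 5.56 CPM in wts discs, against 2.11, 2.09 and 2.4 CPM in control discs (log2 difference 1.42 ± 0.29, adjusted p = 0.00896). The single lower call was 0 without any 1 of the wts replicates, without control 1 or 3 or without day 9 replicate 1 or 3, and 2 without control 2.

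Detoxification families held calls in both directions. Glutathione S-transferases had 1 of 24 genes higher and 3 lower, with a median of -0.03, and 1 of each direction was kept. Cytochrome P450 genes had 5 of 31 higher and 2 lower, with a median of 0.16, and 2 and 1 were kept. UDP-glycosyltransferases had 2 of 12 higher and 1 lower, all kept, with a median of 0.26. GstT4, a glutathione S-transferase, had 44.1, 33.2 and 54.5 CPM in wts discs, against 15, 21.9 and 19.8 CPM in control discs (log2 difference 1.22 ± 0.18, adjusted p = 0.00245), while GstZ2 had 8 counts in wts discs against 147 in controls, a control-to-wts ratio of 15.5 with a counting interval of 7.66 to 36.6 (adjusted p = 0.00249). The cytochrome P450 gene Cyp6a17 had 43.5, 34.5 and 38.8 CPM in wts discs, against 14.5, 17.2 and 12.4 CPM in control discs (log2 difference 1.40 ± 0.16, adjusted p = 0.000673). The UDP-glycosyltransferase gene Ugt35a had 11.5, 11.2 and 16.9 CPM in wts discs, against 3.7, 3.95 and 2.29 CPM in control discs (log2 difference 1.99 ± 0.24, adjusted p = 0.000741). Among GMC oxidoreductases, an enzyme family with several members side by side on the X, 4 of 6 were higher and 1 lower, with a median of 1.59. The count table held 14 genes of this family, and those not tested had too few counts. With 15 control counts each, CG9518 and CG9522 passed the filter through wts discs alone, so their direction followed from the filter. Of the higher calls 3 were kept in every fit, while CG9522 (adjusted p = 0.042) kept its call in 2 of the 9 fits. CG9521 had 18.6, 16.6 and 18.2 CPM in wts discs, against 2.48, 1.51 and 2.61 CPM in control discs (log2 difference 3.02 ± 0.27, adjusted p = 0.000152). CG9518 had 1.92, 1.62 and 1.82 CPM in wts discs, against 0.141, 0.267 and 0.32 CPM in control discs (log2 difference 2.86 ± 0.33, adjusted p = 0.000662). CG6142 rose by 1.23. CG9521 and CG9518 both overlap Flo2 on the opposite strand, which was called higher too, and strand-specific counting is not stated. The lower call in this family, CG9503, was lost without any 1 of the wts replicates and without control 1 or 3. Beyond these families, Fer1HCH, the ferritin heavy chain that stores iron, had 282, 250 and 291 CPM in wts discs, against 137, 128 and 116 CPM in control discs (log2 difference 1.11 ± 0.09, adjusted p = 7.71e-05), and NADPH oxidase (Nox), which makes reactive oxygen, had 136, 113 and 136 CPM in wts discs, against 69.3, 67.4 and 75.4 CPM in control discs (log2 difference 0.86 ± 0.08, adjusted p = 0.000252).

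Matrix genes of the apical surface split between gains and losses. Of 48 cuticle protein genes 4 were higher and 9 lower, with a median of -0.50 and 3 higher and 2 lower calls kept in every fit. Cpr51A had 41.5, 38.5 and 52.4 CPM in wts discs, against 23.9, 19.4 and 16.2 CPM in control discs (log2 difference 1.15 ± 0.17, adjusted p = 0.00218), and Cpr49Ah had 84.8, 101 and 82.2 CPM in wts discs, against 26.8, 49.5 and 19.4 CPM in control discs (log2 difference 1.48 ± 0.27, adjusted p = 0.0055). Both carry the chitin-binding motif of their family and were higher in every wts replicate. Cpr67Fa2 fell by 2.20 on the log2 scale. Lower calls numbered 4 without wts replicate 1 and 2 without wts replicate 3.

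Chitin synthesis and modification had 7 of 27 genes higher and 2 lower, with a median of 0.09. Cht6, a chitinase, had 442, 444 and 385 CPM in wts discs, against 178, 204 and 198 CPM in control discs (log2 difference 1.13 ± 0.14, adjusted p = 0.000802), and overlaps the noncoding CR45185, called higher as well. Gasp, a chitin-binding protein of the tracheal lumen and cuticle, had 415, 449 and 413 CPM in wts discs, against 245, 285 and 167 CPM in control discs (log2 difference 0.87 ± 0.16, adjusted p = 0.00506). Serpentine (serp), a chitin deacetylase, had 425, 398 and 383 CPM in wts discs, against 301, 239 and 244 CPM in control discs (log2 difference 0.62 ± 0.10, adjusted p = 0.0026). The groups did not overlap, and obst-B rose by 0.84. Serp also belongs to the tracheal markers, which summed to 3147 to 3634 CPM in wts discs and 2273 to 2569 CPM in controls. In that sum uif, which discs express too, held 1197 to 1559 CPM in wts discs and 849 to 864 CPM in controls, while the tracheal markers btl and dys were called lower, and the part of tracheal cells in these values was not tested. Higher calls numbered 4 without wts replicate 2, and lower calls 1 without wts replicate 1, control 1 or day 9 replicate 3, and 0 without wts replicate 2 or 3 or control 3.

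Apical matrix and zona pellucida genes were higher in 1 of 21 and lower in 6, with a median of -0.22 and 3 lower calls without wts replicate 3. Notopleural (Np), a membrane protease of the matrix, had 23.1, 20.9 and 12.9 CPM in wts discs, against 103, 60.8 and 110 CPM in control discs (log2 difference -2.27 ± 0.26, adjusted p = 0.000644). Uninflatable (uif), an apical transmembrane protein of the trachea and discs, had 1559, 1484 and 1197 CPM in wts discs, against 849, 850 and 864 CPM in control discs (log2 difference 0.73 ± 0.10, adjusted p = 0.00136), and was the only list member called higher. The mucin-related gene Mur89F and dusky (dy), a zona pellucida protein of the wing, fell by 4.03 and 2.07 on the log2 scale. Osi15, of the Osiris family, had 5.18, 4.85 and 5.35 CPM in wts discs, against 0.515, 0.489 and 0.32 CPM in control discs (log2 difference 3.51 ± 0.31, adjusted p = 0.000146). Osi24 and Osi9 of the same family fell by 2.56 and 2.03 on the log2 scale. In the pigment list, with 3 of 20 genes higher, 4 lower and a median of -0.35, no call held in all 9 fits, and limma-voom called 0 lower. Ebony (e), an enzyme of pigment and cuticle tanning, had 0.155, 0.351 and 0.156 CPM in wts discs, against 16, 0.711 and 1.49 CPM in control discs (log2 difference -4.80 ± 1.16, adjusted p = 0.0205), and came to 11 counts in wts discs. Pale (ple), the tyrosine hydroxylase, had 0.622, 2.67 and 0.468 CPM in wts discs, against 40, 1.78 and 6.98 CPM in control discs (adjusted p = 0.0384). Control 1 was far above the other controls in both genes, and the groups overlapped for ple. The list's lower count of 4 was 0 without wts replicate 1 or 3, 2 without wts replicate 2 or day 9 replicate 3, and 1 without control 1. Its higher count of 3 was 0 without wts replicate 1 or 2 and 1 without wts replicate 3, control 1, control 3 or day 9 replicate 3.

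Junction genes leaned up. Septate junctions seal epithelial cells to each other, and 11 of 27 of their genes were called higher and 1 lower, with a median of 0.19. Neuroglian (Nrg), an adhesion protein of the junction, had 935, 862 and 904 CPM in wts discs, against 658, 719 and 662 CPM in control discs (log2 difference 0.41 ± 0.07, adjusted p = 0.0033). Coracle (cora), a FERM-domain protein of the junction, had 892, 839 and 801 CPM in wts discs, against 621, 695 and 630 CPM in control discs (log2 difference 0.38 ± 0.07, adjusted p = 0.00551). Contactin (Cont) had 1096, 1071 and 1028 CPM in wts discs, against 814, 882 and 830 CPM in control discs (log2 difference 0.34 ± 0.06, adjusted p = 0.00564). The differences were under 1.5-fold and the values did not overlap. Lethal giant larvae (l(2)gl), a polarity regulator counted with this list, had 748, 722 and 867 CPM in wts discs, against 489, 610 and 586 CPM in control discs (log2 difference 0.47 ± 0.10, adjusted p = 0.0107). Of the 11, 6 kept their call, and 6 were called without wts replicate 1. The 1 lower call, Fas3, was lost without any 1 of the 6 day 5 replicates and without day 9 replicate 2 or 3.

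Surface proteins of the immunoglobulin family leaned down, with 12 of 37 lower, 5 higher and a median of -0.30. Hibris (hbs), which pairs cells in muscle fusion and tissue patterning, had 30.3, 25.7 and 23.2 CPM in wts discs, against 79.9, 56.6 and 89.5 CPM in control discs (log2 difference -1.51 ± 0.18, adjusted p = 0.00084). Amalgam (Ama), a secreted adhesion protein, had 101, 110 and 77.1 CPM in wts discs, against 200, 184 and 201 CPM in control discs (log2 difference -1.02 ± 0.13, adjusted p = 0.000875). Beat-IIIc had 9.84, 8.57 and 10.2 CPM in wts discs, against 17.9, 16.5 and 18.8 CPM in control discs (log2 difference -0.89 ± 0.11, adjusted p = 0.000886). Brother of ihog (boi), a Hedgehog co-receptor, was higher with 381, 377 and 356 CPM in wts discs, against 280, 264 and 240 CPM in control discs (log2 difference 0.51 ± 0.07, adjusted p = 0.00148). No values overlapped in these 4. Ama, kirre and sns of this list are myoblast markers too. The summed level of those markers was 418 to 453 CPM in wts discs and 572 to 593 CPM in controls. Ama, kirre and sns are part of that sum, so it is no separate measure beside their falls. Lower calls numbered 6 without wts replicate 3, and higher calls 3 without wts replicate 1 or control 2 and 2 without wts replicate 3 or control 1. Tetraspanins, membrane organisers, were higher in 6 of 20 and lower in 1 with a median of 0.14, and Tsp42Ef was at 117, 114 and 126 CPM in wts discs, against 58, 64.8 and 53.5 CPM in control discs (log2 difference 1.02 ± 0.08, adjusted p = 7.71e-05). That list had 3 higher calls without wts replicate 3, without control 1 or under library size alone, and its lower call, Tsp68C, was lost without control 1 and without wts replicate 1. Fat (ft), the giant cadherin upstream of Wts, had 1054, 1192 and 898 CPM in wts discs, against 655, 715 and 742 CPM in control discs (log2 difference 0.57 ± 0.12, adjusted p = 0.0116).

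Channels gave some of the largest differences of the data. Besides ppk13, the pickpocket genes ppk, ppk29 and rpk were higher, which makes 4 of the 6 tested, and the median was 1.04. The count table held 30 pickpocket genes, and those not tested had too few counts. With 5 counts in controls, ppk13 passed the filter through wts discs alone, so its direction followed from the filter. The founding member ppk had 5.65, 5.48 and 5.35 CPM in wts discs, against 1.78, 1.51 and 1.92 CPM in control discs (log2 difference 1.66 ± 0.18, adjusted p = 0.000417). Ppk29, with a rise of 1.02, overlaps sei and CG13563, both called higher. The lower call of ppk22, at 10 counts in wts discs and 85 in controls, was lost without wts replicate 1 or 3 and without control 1 or 2. Piezo, a channel opened by mechanical force, had 282, 330 and 340 CPM in wts discs, against 119, 169 and 141 CPM in control discs (log2 difference 1.15 ± 0.18, adjusted p = 0.00272). SK, a calcium-activated potassium channel, had 0.466, 0.0702 and 0.26 CPM in wts discs, against 7.96, 10.1 and 4.91 CPM in control discs (log2 difference -4.76 ± 0.51, adjusted p = 0.000474). Their groups were fully apart, Piezo upward and SK downward. Other ion channels were called higher in 7 of 33 and lower in 2, though their median was -0.04, with higher calls at 2, 4 and 3 without wts replicate 1, 2 or 3, 3 without control 1 and 4 without day 9 replicate 3.

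In the cytoskeleton, actin and myosin genes were called higher in 11 of 67 and lower in 10, with a median of -0.03. Cheerio (cher), the filamin that crosslinks actin, had 1455, 1487 and 1334 CPM in wts discs, against 523, 638 and 461 CPM in control discs (log2 difference 1.40 ± 0.11, adjusted p = 7.71e-05). Diaphanous (dia), a formin, had 150, 150 and 152 CPM in wts discs, against 103, 119 and 105 CPM in control discs (log2 difference 0.47 ± 0.06, adjusted p = 0.00106). Missing-in-metastasis (mim), which bends membranes and binds actin, had 77, 72.2 and 62.2 CPM in wts discs, against 102, 99.6 and 101 CPM in control discs (log2 difference -0.51 ± 0.09, adjusted p = 0.00387), and Enabled (ena), an actin elongator, had 170, 169 and 155 CPM in wts discs, against 217, 215 and 220 CPM in control discs (log2 difference -0.40 ± 0.07, adjusted p = 0.00416). Cher and dia were above, and mim and ena below, every control. Higher calls numbered 5 and 6 without wts replicate 1 or 2, 4 and 6 without control 1 or 2 and 7 under library size alone, and lower calls 4 and 3 without wts replicate 1 or 3, 4 without control 1 and 5 without day 9 replicate 3. The tubulin gene betaTub60D had 66.7, 60.5 and 40.5 CPM in wts discs, against 336, 185 and 282 CPM in control discs (log2 difference -2.26 ± 0.26, adjusted p = 0.000637). AP-2mu, an adaptor subunit of clathrin-coated pits, had 55.2, 55.1 and 48.1 CPM in wts discs, against 88.9, 92.4 and 102 CPM in control discs (log2 difference -0.84 ± 0.10, adjusted p = 0.00079).

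Transcription factor lists held more lower than higher calls. Homeobox genes had 4 of 51 higher and 12 lower with a median of -0.29, and the other temporal and patterning factors had 12 of 76 higher and 18 lower with a median of -0.15. Chinmo, a factor of early larval identity, had 355, 330 and 430 CPM in wts discs, against 112, 126 and 76.1 CPM in control discs (log2 difference 1.83 ± 0.18, adjusted p = 0.000297). Abrupt (ab) had 649, 606 and 654 CPM in wts discs, against 350, 395 and 295 CPM in control discs (log2 difference 0.88 ± 0.10, adjusted p = 0.000576). Klumpfuss (klu), a zinc finger factor, had 44.9, 42.1 and 37.3 CPM in wts discs, against 99.9, 71.4 and 90.4 CPM in control discs (log2 difference -1.07 ± 0.13, adjusted p = 0.00079). All 3 were separated between the groups. Among homeobox genes vis, a TALE-class factor, had 9.84, 9.55 and 10.2 CPM in wts discs, against 3.89, 3.78 and 2.77 CPM in control discs (log2 difference 1.5 ± 0.15, adjusted p = 0.000311), and defective proventriculus (dve), of the wing pouch, had 193, 208 and 169 CPM in wts discs, against 133, 119 and 115 CPM in control discs (log2 difference 0.63 ± 0.09, adjusted p = 0.00141). Pox neuro (Poxn), a paired-class factor of sensory organs and the wing hinge, had 32.5, 31.5 and 29.7 CPM in wts discs, against 10.3, 8.93 and 12.5 CPM in control discs (log2 difference 1.57 ± 0.18, adjusted p = 0.000721). Zfh1, which myoblasts express, had 27.4, 26.5 and 22.8 CPM in wts discs, against 45.8, 41.8 and 44.7 CPM in control discs (log2 difference -0.79 ± 0.11, adjusted p = 0.00178). Cut (ct), bric-a-brac 2 (bab2) and pebbled (peb) fell by 0.92, 1.60 and 1.78, and spalt major (salm) and knirps-related (knrl) rose by 0.54 and 0.55. Lower homeobox calls numbered 7 and 5 without wts replicate 2 or 3 and 6 without control 1. In the other list lower calls numbered 9 without wts replicate 3 and 11 without control 1, and higher calls 6 without wts replicate 1. Acf1, a subunit of nucleosome-spacing remodellers, had 229, 258 and 225 CPM in wts discs, against 89, 94.9 and 120 CPM in control discs (log2 difference 1.23 ± 0.11, adjusted p = 0.000121).

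Of 14 tested genes for peptide hormones and cytokines 4 were higher, all in each of the 9 fits, and 0 lower by edgeR or limma-voom, with 1 lower by DESeq2, 2 lower at an unadjusted p under 0.05 and 1 lower without wts replicate 2, control 2 or day 9 replicate 1. The median over the 14 was -0.30, of the opposite sign to the calls. Besides Ilp8 these were os (unpaired), upd3 and Dsk, while natalisin, described above, is not in this list. The JAK/STAT ligand os had 23.9, 21.1 and 23.6 CPM in wts discs, against 11.1, 11.1 and 11.4 CPM in control discs (log2 difference 1.03 ± 0.10, adjusted p = 0.000302), and its relative upd3 had 5.85, 4.78 and 5.77 CPM in wts discs, against 2.53, 2.27 and 2.03 CPM in control discs (log2 difference 1.26 ± 0.19, adjusted p = 0.00214). The controls of os were almost equal and lay below every wts value. Dsk, for the drosulfakinin peptides, had 1.97, 1.62 and 1.82 CPM in wts discs, against 0.141, 0.355 and 0.16 CPM in control discs (log2 difference 2.99 ± 0.57, adjusted p = 0.00674), and overlaps CR33294, which was also called higher.

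Immune recognition genes were called higher in 5 of 22 and lower in 1, with a median of 0.18. Tep2, a thioester protein that binds microbes, had 174, 221 and 199 CPM in wts discs, against 94.6, 108 and 88.1 CPM in control discs (log2 difference 1.03 ± 0.14, adjusted p = 0.00148). PGRP-SA, a peptidoglycan receptor of the Toll pathway, had 6.17, 12.9 and 8.47 CPM in wts discs, against 1.03, 1.87 and 2.83 CPM in control discs (log2 difference 2.27 ± 0.48, adjusted p = 0.011), with wts replicate 2 the highest. GNBP2 and Tep3 rose by 0.79 and 0.56, and none of these overlapped. The lower call, PGRP-LA, was lost without wts replicate 1 or 3, control 1 or 3 or day 9 replicate 3, and 2 genes were lower without wts replicate 2. Serpins, which inhibit proteases, went both ways. Spn77Ba, an inhibitor of melanisation in the trachea, had 193, 182 and 205 CPM in wts discs, against 117, 130 and 125 CPM in control discs (log2 difference 0.64 ± 0.08, adjusted p = 0.000904), while Spn43Aa had 13.4, 13.3 and 9.35 CPM in wts discs, against 169, 27.9 and 179 CPM in control discs (log2 difference -3.38 ± 0.59, adjusted p = 0.00465) with control 2 far below the other controls.

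Regulators of cell death were called higher in 5 of 26 and lower in 5, with a median of 0.04. Diap1, the caspase inhibitor and a known Yorkie target, had 439, 406 and 435 CPM in wts discs, against 342, 303 and 324 CPM in control discs (log2 difference 0.40 ± 0.07, adjusted p = 0.00387). Diap2, its relative, had 79.7, 66 and 79.4 CPM in wts discs, against 55.6, 57.1 and 53.2 CPM in control discs (log2 difference 0.44 ± 0.08, adjusted p = 0.00515). Strica, a caspase, had 3.37, 3.51 and 4.99 CPM in wts discs, against 7.78, 8.75 and 8.64 CPM in control discs (log2 difference -1.08 ± 0.18, adjusted p = 0.00363). Each was separated from the controls. Dronc and Dcp-1, further caspases, were called lower at -0.42 and -0.28 but not in every fit, and lower calls in the list numbered 1 without wts replicate 3.

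Markers of other cell types were summed as CPM over each list. Myoblasts and trachea attach to the wing disc, so these lists report on tissue that a dissection carries along. Myoblast markers summed to 453, 447 and 418 CPM in wts discs, against 590, 593 and 572 CPM in control discs, with 5 of 10 called lower and 3 of these kept. That count was 3 without wts replicate 3 or control 1. Those called were Ama, zfh1, Him, kirre and sns, while twi, htl, stumps, Mef2 and SPARC were not called. Ama alone held 101, 110 and 77.1 CPM of the sum in wts discs, against 200, 184 and 201 CPM in control discs. The fall of the sum is therefore largely that of Ama. Tracheal markers summed to 3634, 3401 and 3147 CPM in wts discs, against 2569, 2273 and 2282 CPM in control discs, where serp, Osi15 and uif were called higher, and btl, the FGF receptor of tracheal cells, and dys, a factor of tracheal fusion cells, lower, all in each fit. Btl had 6.53, 8.64 and 7.43 CPM in wts discs, against 13.7, 14 and 14.2 CPM in control discs (log2 difference -0.89 ± 0.14, adjusted p = 0.00249).

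**Figure D4:**
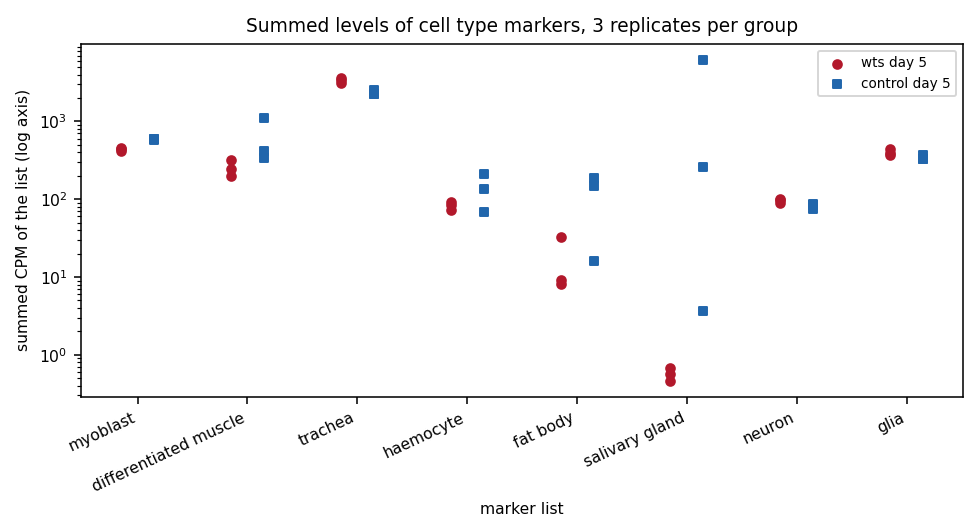
Summed CPM of the markers of each cell type on a log axis, with 1 point per replicate, wts as red circles left of control as blue squares. The salivary gland sum stays under 1 CPM in the 3 wts replicates and spreads widely over the 3 controls.

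Differentiated muscle markers summed to 242, 320 and 196 CPM in wts discs, against 420, 1103 and 340 CPM in control discs, highest in control 2, with 6 of 10 called lower, 2 without wts replicate 1 and 1 without wts replicate 3. Act79B was at 0 in all replicates. Haemocyte markers summed to 84.9, 90.9 and 71.8 CPM in wts discs, against 67.8, 137 and 209 CPM in control discs, highest in control 3. Fat body markers summed to 9.17, 8.15 and 33.1 CPM in wts discs, against 16.2, 147 and 188 CPM in control discs. Of the fat body sum in control 3, Fbp1 alone held 114 CPM, against 6.53 CPM in control 2. Fbp1, Lsp2 and Ilp6 were highest in control 3, but Fbp2, Lsp1alpha, Lsp1beta, Lsp1gamma and Rfabg in control 2. Pxn was the only haemocyte marker called lower, and lost its call without any 1 of the wts replicates, control 2 or 3 or day 9 replicate 2 or 3, while 4 were lower without control 1. For fat body, 2 of 8 were called lower, 0 without any 1 of the wts replicates, control 3 or day 9 replicate 3, 1 without control 2 and 5 without control 1. The salivary gland sum was 0.466, 0.562 and 0.675 CPM in wts discs, against 3.65, 258 and 6178 CPM in control discs, with ng1 at 0 in every wts replicate and in controls 1 and 3, and Sgs3 and Sgs7, the 2 of its 8 genes that were tested, were called lower, neither without wts replicate 1 or 3. Limma-voom called 0 haemocyte, fat body or salivary gland markers lower. Neuron markers summed to 98.1, 90 and 101 CPM in wts discs, against 75.7, 84.5 and 87.7 CPM in control discs and glial markers to 396, 374 and 445 CPM in wts discs, against 325, 371 and 333 CPM in control discs. Most of the neuron sum was elav, and no neuron marker was called. Most of the glial sum was nrv2, also in the septate junction list, with 302, 280 and 356 CPM in wts discs, against 228, 266 and 240 CPM in control discs. It was the only glial marker called, and lost its call without wts replicate 1 or 3 or control 1 or 3. Of the others, moody was higher and loco lower in mean, neither called. The part of such tissue in the calls above was not tested.

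Calls were spread over all chromosome arms, at 18.7% of tested genes on 2L, 19.0% on 2R, 20.3% on 3L, 18.5% on 3R, 20.3% on 4 and 15.7% on X, beside 18.5% overall. Of 264 tested noncoding RNA genes 35 were called higher and 5 lower, which is 15.2% in either direction, against 18.7% of 8148 protein-coding genes. Neighbouring tested genes called in the same direction formed 22 runs of 3 or more higher and 13 lower, with 116 of the 8475 genes placed on the arms.

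**Figure D5:**
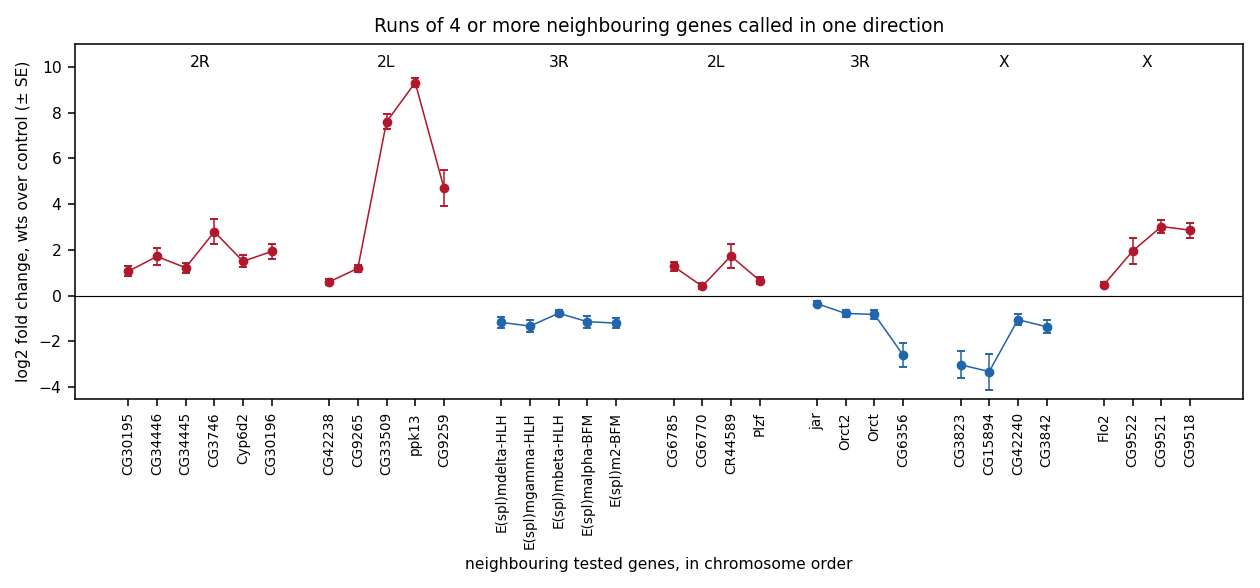
Log2 difference, wts over control, with its standard error, of the genes in the 7 runs of at least 4 neighbouring tested genes called in 1 direction, in chromosome order with the arm above, higher in red and lower in blue. The fitted values of CG33509, ppk13 and CG9259 rest on 8, 5 and 1 control counts and are no measure of their size.

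The longest run held 6 genes on 2R, all higher, from CG30195 to CG30196, and included Cyp6d2, which had 5.28, 5.41 and 7.22 CPM in wts discs, against 1.55, 2.84 and 1.92 CPM in control discs (log2 difference 1.5 ± 0.26, adjusted p = 0.00484). The run around ppk13 on 2L held CG42238, CG9265, CG33509, ppk13 and CG9259. Its last member had 30 counts in wts discs against 1 in controls, a ratio of 35.6 with a counting interval of 5.92 to 1452, and CG42238 lost its call without wts replicate 3 or control 1. On 3R, 5 genes of the Enhancer of split complex, repressors and partners that Notch signalling induces, were lower together: E(spl)mdelta-HLH, E(spl)mgamma-HLH, E(spl)mbeta-HLH, E(spl)malpha-BFM and E(spl)m2-BFM fell by 1.17, 1.33, 0.77, 1.14 and 1.20. E(spl)mgamma-HLH had 3.42, 2.32 and 2.55 CPM in wts discs, against 6.65, 5.51 and 8.69 CPM in control discs, with no overlap, and E(spl)malpha-BFM lost its call without wts replicate 1 or 3 or control 1.

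Further runs joined genes named above or of related role. The proneural genes ac, sc and ase on X were lower, and ac had 9.17, 8.08 and 10 CPM in wts discs, against 16.8, 15.2 and 19.9 CPM in control discs (log2 difference -0.92 ± 0.13, adjusted p = 0.00183), while sc and ase each lost the call without wts replicate 3. Also on X, the growth regulator Myc, listed as dm, had 290, 266 and 290 CPM in wts discs, against 173, 192 and 175 CPM in control discs (log2 difference 0.65 ± 0.09, adjusted p = 0.00192) and stood beside CG12206 and CG10804, all higher. On 2L, CG13692, BBS8 and ex were adjacent and higher. On 3R, sima, CG31029 and Tpi were adjacent and lower, as were jar, Orct2, Orct and CG6356, of which jar lost its call without wts replicate 1 or 3, control 1 or 3 or day 9 replicate 2 or 3, Orct without wts replicate 1 or 3 and CG6356 without wts replicate 3. On 3L, Tgi, a partner of Scalloped that represses its targets, had 68, 62.3 and 60.8 CPM in wts discs, against 116, 98.1 and 102 CPM in control discs (log2 difference -0.72 ± 0.08, adjusted p = 0.000377) and lay between Abp1 and Spt20, both lower, though Spt20 lost its call without wts replicate 3 and Abp1 without any 1 of the wts replicates, control 1 or day 9 replicate 2 or 3. Genes that overlap or lie close can share reads, and strand-specific counting is not stated, so a run is not a count of independent changes.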

How the data were processed

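RNA-seq was made from hand-dissected wing discs, and HTSeq is the only tool named, without a version, per the submitters' processing notes. For the aligner, genome build, annotation and strand setting nothing is given in the sources used here. The values are raw read counts per gene and library, as deposited by the authors in 1 table, in which 0 columns were left unmapped. The a and b libraries of each replicate number were summed. Of 17373 gene names, 12781 matched the Ensembl release 115 annotation (BDGP6.54) by symbol and 4366 by synonym; the match served for arms, neighbours, overlaps and current names alone.

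Counts were tested with the quasi-likelihood F-test of edgeR 4.0.16 in R 4.3.3 (filterByExpr, TMM, no covariate) in 1 fit of wts day 5, control day 5 and wts day 9, with Benjamini-Hochberg adjustment over 8585 genes and calls at an adjusted p under 0.05. The standard error is the log2 difference divided by the square root of the F statistic. The fitting code was also tested on data simulated with the means, spread and depth of the real counts. Depth was 14201662 to 22263073 counts per replicate, and counting intervals are exact at 95% and cover counting error only. Alternatives were other scalings and filters, DESeq2 1.42.0, limma-voom (limma 3.58.1), robust spread, the 2 groups alone, a replicate block, the a or b libraries alone, and leaving out each replicate. Spreads and gaps used log2(CPM + 1).

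Named genes are wts, the 12 largest changes and the 12 smallest adjusted p-values in each direction among called genes of at least 10 CPM whose gap exceeds the control range, up to 4 called members of each list by adjusted p, the 15 genes with the largest control SD, and runs of 3 or more neighbours. Named genes outside this rule were chosen after their values were seen. The members and lists were chosen with earlier results of these data known, and a few entries of another function than their list's were removed after values were seen.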

Additional observations from a re-analysis of the deposited data

How the results depend on the processing

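Of 6902 combinations of a named gene and an alternative, 6193 kept direction and side of the threshold, 696 lost the call, 13 gained one and 0 changed sign. The alternatives with the most lost calls left out wts replicate 3 (112), wts replicate 1 (89) or control replicate 1 (75). Over the fits that leave out 1 replicate, genes higher numbered 463 to 906 and genes lower 276 to 843, where the lowest counts came without wts replicate 3. The other alternatives gave 644 to 958 higher and 611 to 1066 lower. With the 2 groups alone, 672 genes were higher and 611 lower, and 38 named genes lost their call. With the replicate number as a replicate block, 671 genes were higher and 622 lower. The deviations of same-numbered wts and control samples correlated at 0.244, 0.09 and -0.167 for replicates 1, 2 and 3, and 3 of 6 samples correlated best with their own number. With 3 replicates per group this cannot decide whether the numbers pair the samples, and nothing in the labels says that they do. The cause of these shifts was not tested. Differences below the spread of 3 replicates, and genes of a few counts, cannot be judged at this depth.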
